A study of Saccharomyces cerevisiae with 8 samples.

Results

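The galactose and sucrose genes described here are GAL1, GAL2, GAL3, GAL4, GAL7, GAL10 and GAL80, which make up the galactose system of budding yeast, and SUC2, which encodes invertase. They were chosen by standard gene name, and each of the 8 matched 1 of the 7126 rows of the expression table. RNA was sequenced from Saccharomyces cerevisiae strains of the BY4741 background with an edited GCR1, the gene of an activator of glycolytic genes. Strain S (JHY9200) carried GCR1 (∆4-742) and made Gcr1(S), and strain U (JHY9100) carried GCR1 (∆1-574) and made Gcr1(U), so both strains were edited and no unedited GCR1 strain is compared here. Each strain was sampled at 12 h, after the diauxic shift according to the labels, and at 6 h, in exponential phase, with 2 libraries in each of the 4 groups and 8 in all. The cultures grew in YPD with 2% glucose, and the labels name no galactose, no sucrose and no treatment. The sources used here do not say if replicates were separate cultures or clones, so p-values measure only the spread between these libraries, which may be technical.

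Yeast takes up galactose with the permease Gal2 and converts it through galactokinase (Gal1), a uridylyltransferase (Gal7) and an epimerase (Gal10). Gal4 activates these genes from sites upstream of them, Gal80 binds Gal4 and blocks it, and Gal3 binds galactose and then keeps Gal80 from blocking Gal4. Glucose overrides the system: the repressor Mig1, with Cyc8 and Tup1, acts on GAL4, GAL1 and SUC2 among others, and when glucose runs out the kinase Snf1 inactivates Mig1. Release from repression and induction by galactose are separate steps, and SUC2 needs no inducer.

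The letters that Gal4 and Mig1 are known to read are shown because most genes lack them. Sequences are from the RefSeq R64 genome, the assembly named sacCer3 in the submitters' processing notes, each 5′ to 3′ on the strand of its gene and with its position. In the first set capitals mark the Gal4 motif, which is CGG and CCG with 11 bases of any kind between them, in the 500 bases before the start codon; it reads the same on both strands. GAL1 and GAL10 are divergent and share the first stretch.
GAL1 and GAL10, chrII:278558-278631, strand of GAL1: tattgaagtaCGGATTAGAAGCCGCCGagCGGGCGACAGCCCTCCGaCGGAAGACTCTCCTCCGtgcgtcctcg
GAL2, chrXII:289786-289910, plus strand: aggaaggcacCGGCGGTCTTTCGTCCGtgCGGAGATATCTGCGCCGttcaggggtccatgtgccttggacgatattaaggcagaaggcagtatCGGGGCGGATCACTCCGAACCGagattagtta
GAL7, chrII:275693-275729, minus strand: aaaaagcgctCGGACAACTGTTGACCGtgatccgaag
GAL3, chrIV:463136-463172, plus strand: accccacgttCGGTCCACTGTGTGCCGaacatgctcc
GAL80, chrXIII:171412-171448, plus strand: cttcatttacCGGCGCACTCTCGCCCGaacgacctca
GAL4, chrXVI:82800-82836, minus strand: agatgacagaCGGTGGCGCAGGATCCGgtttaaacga
The match before GAL4 lies inside the next gene, YPL247C (chromosome XVI from 82625 to 84196).

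In the second set capitals mark letters that fit the core of the Mig1 site, which are GGGG directly after GC, CC, GT or CT, as in GTGGGG, searched on both strands.
SUC2, chrIX:36885-36995, plus strand: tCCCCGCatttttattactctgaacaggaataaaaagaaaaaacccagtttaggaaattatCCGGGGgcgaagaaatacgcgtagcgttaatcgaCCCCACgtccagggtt
GAL1 and GAL10, chrII:278741-278842, strand of GAL1: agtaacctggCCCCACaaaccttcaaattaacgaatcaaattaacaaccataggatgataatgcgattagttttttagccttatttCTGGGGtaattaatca
GAL3, chrIV:463127-463152, plus strand: agtgcacttaCCCCACgttcggtcca
GAL4, chrXVI:82675-82700, minus strand: tgcatggaggCCCCAGaggggcgatt
GAL80, chrXIII:171178-171203, plus strand: tgcaagcataGTGGGGccttcttcca
Of the matches shown, that of GAL4 lies inside YPL247C, that of GAL80 inside SUR7, and those of SUC2 other than the leftmost inside YIL163C. A further match of GAL3, 78 to 83 bases before its start codon, is not printed. A further match of GAL4, 84 to 89 bases before its start codon, is not printed either and lies outside YPL247C.

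The Gal4 motif was found before 7 of the 8 members, all but SUC2, while 2.98% of 6000 windows of the same length before protein-coding genes held it. GAL1, GAL2 and GAL10 had 2 or more matches, as did 0.117% of the windows, and the last 2 matches of GAL2 overlap each other. The Mig1 letters were found before 6 members, all but GAL2 and GAL7, and in 22.7% of the windows. GAL80 had 1 Mig1 match and the other 5 had 2 or more, as did 3.63% of the windows. No Gal4 match overlapped a Mig1 match. GAL1 and GAL10 share their matches of both kinds and were counted as separate members. Gal4 is known to act from sites upstream of galactose genes, so these counts are a description and not a test. A match describes the letters, and binding was not measured.

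**Figure D1:**
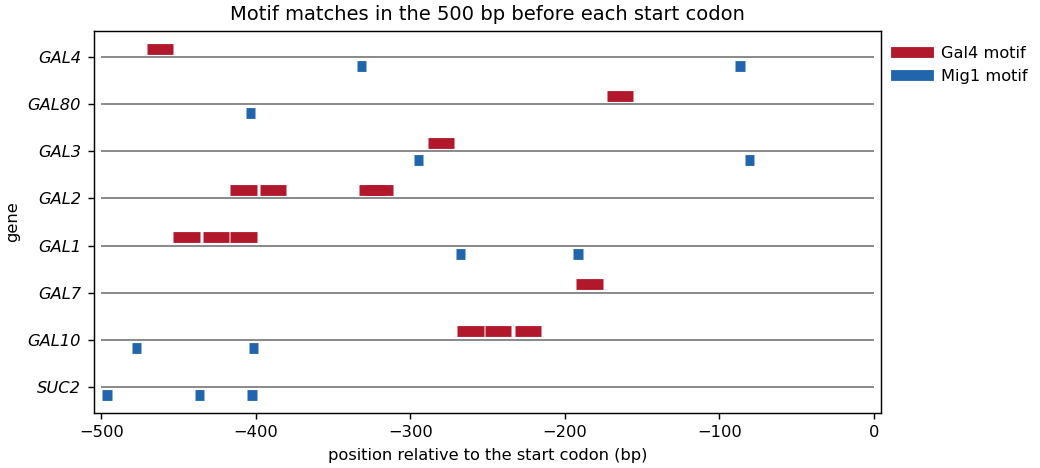
Matches to the Gal4 motif and to the Mig1 letters in the 500 bp before the start codon of each member, by distance from it in bp. The 3 Gal4 matches shared by GAL1 and GAL10 lie 400 to 453 bases before GAL1 and 216 to 269 bases before GAL10, and the 3 Mig1 matches of SUC2 lie 400 to 499 bases before it.

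The deposited values are FPKM, fragments per kilobase of transcript scaled to the size of the library, which allow levels to be set side by side between genes. The depth of the libraries is unknown. STE2, the receptor gene of a cells, had 208.46 to 1075.46 FPKM and STE3, that of alpha cells, 2.6 to 8.22. Not all such genes were as far apart: SAG1 of alpha cells had 26.63 to 64.45 FPKM and BAR1 of a cells 35.83 to 217.91. MFA1, also of a cells, was listed at 0 in S 12 h replicate 2. LEU2, URA3 and MET17, which BY4741 lacks, were listed at 0 in every library. HIS3, the remaining marker of that background, had 68.81 to 282.8 FPKM, and what reads it received was not tested. The replicates stood apart at 6 h in both strains: 19 heat shock and chaperone genes had a median log2 difference, replicate 1 minus replicate 2, of 2.05 in S and 2.08 in U, while the members had 0.20 in S and -0.02 in U. Differences were tested with limma on log2(FPKM + 1) in 1 fit of all 4 groups, over 6339 genes with a mean of at least 1 FPKM, and its two-sided p-values were corrected over all of these genes (Benjamini-Hochberg). A gene was called at an adjusted p under 0.05. Fold changes on this scale understate the change of low genes. All 8 members passed the filter and were above 0 in every library.

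The comparison of 12 h with 6 h bears on the release of glucose repression. Every member was higher in both libraries at 12 h than in both at 6 h, in S and in U. The test called 5 of 8 members higher in S (GAL1, GAL3, GAL4, GAL7 and GAL10) and 6 in U, the same 5 and GAL80, and none lower. Of all genes tested, 33.2% were called higher in S and 33.5% in U, 22.9% and 21.7% were called lower, and 47.1% in S and 49.2% in U had higher groups at 12 h with no overlap. The median log2 fold change of the members was 1.03 in S and 1.14 in U, beside 0.23 and 0.26 over all genes. Of all calls, 59.2% were higher in S and 60.7% in U. Median-of-ratios scaling took the medians over all genes to 0.02 in both strains, the higher share of calls to 48.8% in S and 48.5% in U, and the medians of the members to 0.83 in S and 0.91 in U. Quantile normalization took them to 0.58 in S and 0.62 in U, with 7 of 8 members above 0 in each strain, beside medians over all genes of -0.04 in S and -0.03 in U and higher shares of 47.4% and 47.1%.

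**Figure D2:**
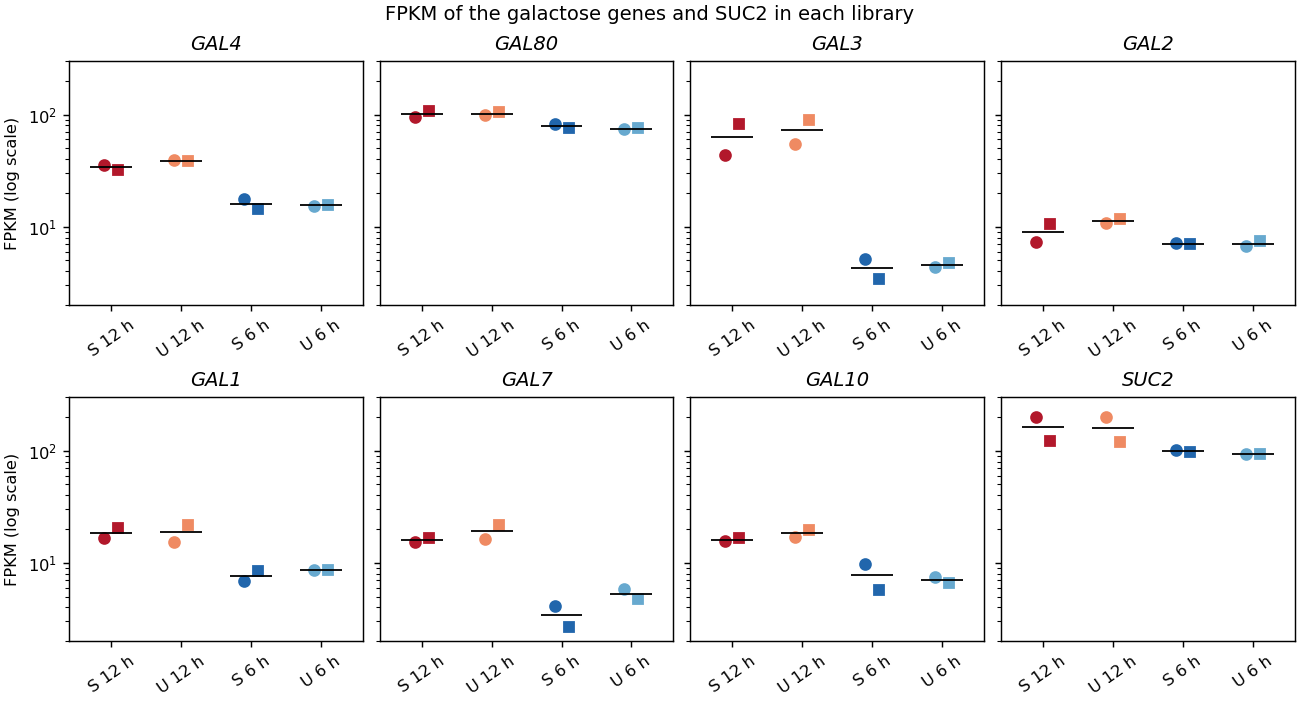
FPKM on a log axis of each member in the 8 libraries; circles are replicate 1, squares replicate 2 and bars group means. GAL3 has the widest gap between times, and SUC2 and GAL80 are the highest members at both; the small gap of GAL2 reverses under quantile normalization.

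GAL3, the galactose sensor, had the largest fold change of the members. It had 43.7 and 82.19 FPKM in S at 12 h, against 5.18 and 3.39 in S at 6 h. In U it had 54.11 and 90.19 FPKM at 12 h, against 4.41 and 4.75 at 6 h. The times were far apart in both strains, and replicate 2 was the higher at 12 h in both. The log2 fold change was 3.55 in S (SE 0.38, 95% confidence interval 2.64 to 4.46, adjusted p = 0.000669) and 3.67 in U (SE 0.38, interval 2.76 to 4.58, adjusted p = 0.000597). In each strain this interval lies above that of every other member; the nearest, that of GAL7, reached 2.57 in S and 2.28 in U.

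GAL80, the repressor of Gal4, was high at both times. It had 95.67 and 107.07 FPKM in S at 12 h, against 82.12 and 76.15 at 6 h, and 98.41 and 105.56 FPKM in U at 12 h, against 74.2 and 75.72 at 6 h. The groups did not overlap, but the differences were small, with log2 fold changes of 0.35 in S (SE 0.13, adjusted p = 0.0625) and 0.44 in U (SE 0.13, adjusted p = 0.0314). These lie 0.12 in S and 0.18 in U above the median of all genes. GAL80 in U was called in only 8 of 18 alternatives. With median-of-ratios scaling it had 0.19 and was not called (adjusted p = 0.219). Leaving out any 1 library of U, or any 1 of S at 12 h, also ended the call, with adjusted p from 0.0542 (without S 12 h replicate 2) to 0.135 (without U 12 h replicate 2).

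The sensor and repressor transcripts stood in different proportion at 12 h and 6 h. The ratio of GAL3 to GAL80 in FPKM was 0.457 and 0.768 in S at 12 h, against 0.0631 and 0.0445 at 6 h. In U it was 0.55 and 0.854 at 12 h, against 0.0594 and 0.0627 at 6 h. GAL3 stayed below GAL80 in all 8 libraries.

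GAL4, the activator, was higher at 12 h in both strains with little spread. It had 35.35 and 32.29 FPKM in S at 12 h, against 17.64 and 14.31 at 6 h, and 39.52 and 38.23 FPKM in U at 12 h, against 15.18 and 15.76 at 6 h. The log2 fold change was 1.04 in S (SE 0.15, adjusted p = 0.00214) and 1.28 in U (SE 0.15, adjusted p = 0.00102), or 2.06-fold and 2.42-fold. Quantile normalization lowered the value in S to 0.68, still called (adjusted p = 0.00726). An antisense RNA (YNCP0002W) is annotated over all of GAL4, on chromosome XVI from 79562 to 82648. The kit kept strand, but the sources used here do not say that the quantification used it, so reads of GAL4 and of that RNA cannot be told apart.

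The genes of the enzymes lie side by side on chromosome II, GAL7 from 274427 to 275527, GAL10 from 276253 to 278352 and GAL1 from 279021 to 280607, each with 1 coding exon. GAL7, GAL10 and GAL1 were called higher in both strains and stayed low, at 15.21 to 21.94 FPKM at 12 h, against 2.69 to 9.76 FPKM at 6 h. GAL7, the uridylyltransferase, had 15.21 and 16.65 FPKM in S at 12 h, against 4.09 and 2.69 at 6 h. In U it had 16.41 and 21.81 FPKM at 12 h, against 5.81 and 4.73 at 6 h. Its log2 fold changes of 1.96 in S (SE 0.25, adjusted p = 0.00127) and 1.67 in U (SE 0.25, adjusted p = 0.00232) were the largest after GAL3. Quantile normalization lowered the value in U to 1.06, still called (adjusted p = 0.00675).

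GAL10, the epimerase, had 15.59 and 16.7 FPKM in S at 12 h, against 9.76 and 5.71 at 6 h, where its replicates were farther apart than in the other groups. In U it had 16.94 and 19.77 FPKM at 12 h, against 7.43 and 6.56 at 6 h. Its log2 fold changes were 1.01 in S (SE 0.26, adjusted p = 0.0161) and 1.27 in U (SE 0.26, adjusted p = 0.00703), and quantile normalization lowered that of U to 0.68, still called (adjusted p = 0.0253). The call in S ended when S 12 h replicate 1 (adjusted p = 0.0636) or S 12 h replicate 2 (adjusted p = 0.0782) was left out, when the 2 groups were fitted alone (adjusted p = 0.0568), and with quantile normalization (log2 fold change 0.49, adjusted p = 0.0704). The value in S was 0.67 when S 6 h replicate 2 was left out (adjusted p = 0.0483).

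GAL1, the galactokinase, had 16.51 and 20.5 FPKM in S at 12 h, against 6.86 and 8.52 at 6 h. In U it had 15.37 and 21.94 FPKM at 12 h, against 8.61 and 8.57 at 6 h. Its log2 fold changes were 1.17 in S (SE 0.23, adjusted p = 0.00657) and 1.01 in U (SE 0.23, adjusted p = 0.011). Quantile normalization gave 0.64 in S (adjusted p = 0.0732) and 0.43 in U (adjusted p = 0.2). The call in U also ended when U 12 h replicate 2 (0.77, adjusted p = 0.0606) or U 6 h replicate 2 (1.01, adjusted p = 0.0505) was left out.

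The ratio of GAL1 to GAL10, which share the region between them, ran from 0.907 to 1.23 over the 12 h libraries, against 0.703 to 1.49 over those of 6 h. That of GAL7 to GAL10 ran from 0.969 to 1.1 at 12 h, against 0.419 to 0.782 at 6 h, with no overlap. An annotated RNA (YNCB0008W, chromosome II from 276805 to 280645) is antisense to GAL10 over most of its length and covers GAL1 in the sense direction. Its reads cannot be told apart from those of GAL1, nor, if strand was not used, from those of GAL10.

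GAL2, the permease, was the lowest member in every library at 12 h. It had 7.35 and 10.56 FPKM in S at 12 h, against 7.1 and 7.0 at 6 h, and 10.85 and 11.81 FPKM in U at 12 h, against 6.66 and 7.46 at 6 h. The log2 fold changes of 0.29 in S (SE 0.22, adjusted p = 0.298) and 0.61 in U (SE 0.22, adjusted p = 0.0521) did not pass the test. GAL2 in U was called in 6 of 17 alternatives, with adjusted p down to 0.0341, while quantile normalization gave -0.32 in S and -0.05 in U. In S the value was 0.05 when S 12 h replicate 2 was left out, and 0.52 when it was S 12 h replicate 1. The coding sequence of GAL2 shares exact stretches of at least 20 bases with 15 other genes, the longest of 35 bases with HXT4, a hexose transporter gene, while reads were of 100 cycles.

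SUC2, the invertase gene, was the highest member in all 8 libraries. It had 199.76 and 123.13 FPKM in S at 12 h, against 101.56 and 98.1 at 6 h, and 201.58 and 118.79 FPKM in U at 12 h, against 93.79 and 93.96 at 6 h. The 6 h libraries were close together, while at 12 h replicate 1 was above replicate 2 in both strains, by 0.694 in S and 0.758 in U on the log2 scale. A gap as large was seen for 6.63% of genes in S and 6.25% in U. The log2 fold changes of 0.65 in S (SE 0.31, 95% confidence interval -0.11 to 1.40, adjusted p = 0.123) and 0.72 in U (SE 0.31, interval -0.04 to 1.47, adjusted p = 0.095) did not pass the test. In U the value was 1.09 and was called (adjusted p = 0.0451) when U 12 h replicate 2 was left out, and 0.34 (adjusted p = 0.425) when U 12 h replicate 1 was. In S it was 0.99 (adjusted p = 0.0675) without S 12 h replicate 2 and 0.30 (adjusted p = 0.506) without S 12 h replicate 1.

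At 12 h SUC2 was higher in replicate 1 and GAL3 in replicate 2, in S and in U alike. ADH2, the alcohol dehydrogenase gene of ethanol use, which glucose also represses, had 200.06 FPKM in replicate 1 and 2043.35 in replicate 2 of S at 12 h, and 356.64 and 2546.57 in those of U. The part of this replicate difference in the time changes of SUC2 and GAL3 was not tested.

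**Figure D3:**
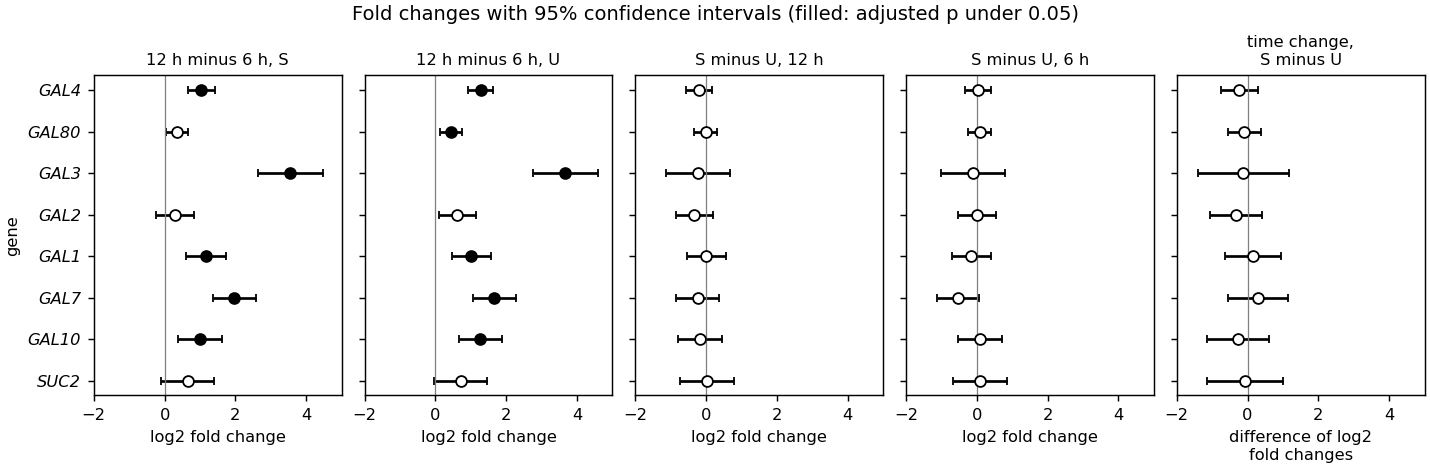
Log2 fold changes of the members in the 5 comparisons with 95% confidence intervals from limma; filled points passed the test. All time changes lie above 0 (those of GAL2 fall below 0 under quantile normalization), and the intervals of the strain comparisons and of the difference of time changes all include 0.

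The order of the members by level differed between the times. In all 4 libraries at 12 h it ran SUC2, GAL80, GAL3 and GAL4 from the top and ended with GAL2, while GAL1, GAL7 and GAL10 changed places between libraries. At 6 h SUC2, GAL80 and GAL4 led in every library and GAL3 and GAL7 were the lowest. GAL1, GAL2 and GAL10 lay between them with overlapping values.

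The comparison of the strains bears on the form of Gcr1. At 12 h the log2 differences S minus U of the members ran from -0.33 (GAL2) to 0.02 (SUC2). That of GAL2 was -0.56 when S 12 h replicate 2 was left out, and -0.09 when it was S 12 h replicate 1. Limma called 0 of 8 members, beside 0.126% of all genes called. At an unadjusted p under 0.05 it had 0 members and only 61 of all 6339 genes, so the 0 says little about the strains. GAL2, GAL4 and GAL10 were lower in both S libraries than in both U libraries, and 20.6% of all genes had groups that did not overlap in either direction. The 95% confidence interval ran from -0.33 to 0.31 for GAL80 and from -0.56 to 0.17 for GAL4, but from -1.13 to 0.69 for GAL3 and from -0.74 to 0.78 for SUC2.

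At 6 h the log2 differences S minus U ran from -0.53 (GAL7, interval -1.13 to 0.07) to 0.09 (GAL10 and SUC2). Limma called 0 of 8 members, beside 0.0789% of all genes called. At an unadjusted p under 0.05 it had 0 members and only 56 of all 6339 genes, so here too the 0 says little. GAL1 and GAL7 were lower, and GAL80 and SUC2 higher, in both S libraries than in both U libraries, and 10.7% of all genes had groups that did not overlap. The time change in S minus that in U ran from -0.33 (GAL2) to 0.29 (GAL7), and with 1 library left out GAL2 ran from -0.56 (S 12 h replicate 2 left out) to -0.09 (S 12 h replicate 1) and GAL7 from 0.06 (S 6 h replicate 2 left out) to 0.52 (S 6 h replicate 1). Limma again called 0 of 8 members, beside 0.0789% of all genes. At an unadjusted p under 0.05 it had 0 members and only 51 of all 6339 genes. For GAL80, called in U only, this difference was -0.09 (interval -0.54 to 0.37), and for GAL3 it was -0.12 (interval -1.41 to 1.17).

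Other genes of galactose metabolism or known as Gal4 targets were taken as a list of 9. In each strain 5 were called higher at 12 h and 1 lower, beside 33.2% of all genes called higher in S and 33.5% in U. The median log2 fold change was 1.40 in S and 1.49 in U, beside 0.23 and 0.26 over all genes. GCY1, a glycerol dehydrogenase gene, rose by 3.16 in S and 3.24 in U, FUR4, the uracil permease gene next to GAL1, by 1.84 and 1.98, and PCL10, a cyclin gene, by 1.57 and 1.70. PGM1, the minor phosphoglucomutase, was the gene called lower (-1.66 in S and -1.63 in U). PGM2, the major one, had 323.83 and 296.87 FPKM in S at 12 h, against 276.5 and 14.44 at 6 h, and did not pass the test in S (adjusted p = 0.229) or U (adjusted p = 0.222). Its 6 h replicates differed in the same direction as the heat shock genes.

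Maltose and other alpha-glucosides are further sugars that yeast uses when glucose is gone, and the maltose genes have an inducer, as the galactose genes do. Of 14 such genes 10 passed the filter on low values, and of these 7 were called higher in S and 8 in U and none lower. Their medians were 1.65 and 1.71, beside 0.23 and 0.26 over all genes, of which 33.2% and 33.5% were called higher. MAL33, an activator gene of this system, had 118.64 and 172.41 FPKM in S at 12 h, against 20.47 and 15.15 at 6 h, and its log2 fold change was 2.95 in S and 3.58 in U. MAL11 and MAL31, which encode transporters, had 1.92 and 1.75 in S and 2.12 and 2.17 in U. IMA2, an isomaltase gene, had 1.86 in both strains, and ZNF1, a regulator gene, had 1.74 in S and 2.29 in U. IMA1 went the other way, at -0.84 in S and -0.46 in U, and did not pass the test. MAL12 and MAL32 were low in all libraries, at 0.64 to 4.51 FPKM. Genes of this family are alike in sequence, so how reads were split among them is uncertain.

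Of 20 other genes known to be repressed by glucose 16 were called higher and 1 lower in each strain. Of all genes 33.2% were called higher in S and 33.5% in U, and 22.9% and 21.7% lower. The median log2 fold changes of the 20 were 4.99 in S and 5.37 in U, beside 1.03 and 1.14 for the members. PCK1, of gluconeogenesis, had 10.46 in S and 10.73 in U, and FBP1, of the same pathway, 9.08 and 8.93. MLS1, of the glyoxylate cycle, had 9.98 in S and 10.10 in U, and JEN1, a lactate transporter gene, 8.14 and 8.23. HXT2, a transporter gene used at low glucose, was the gene called lower (-4.40 in S and -4.06 in U). The smallest changes among the 16 genes called higher were those of GUT1 in S (3.45) and CYC1 in U (3.6). Of the members GAL3 alone reached them, at 3.55 in S and 3.67 in U, by less than its SE of 0.38. With 1 library left out its value ran from 3.1 to 4.0 in S and from 3.3 to 4.03 in U. The 3 genes of this list that were not called were HXK1 (0.41 in S and -0.12 in U), HXT7 (0.1 and 0.45) and GLK1 (3.11 and 2.46). Their 6 h replicates were far apart, with replicate 1 the higher in both strains, as for the heat shock genes. On the log2 scale the gaps in S were 3.17 for HXK1, 3.16 for HXT7 and 3.5 for GLK1. In U they were 1.57, 1.81 and 2.14. Of 10 genes known to be induced by glucose 7 were called lower in S and 8 in U, beside the 22.9% and 21.7% of all genes. Among them were the transporter genes HXT3 (-5.69 in S and -5.71 in U), HXT4 (-5.04 and -4.95) and HXT1 (-4.44 and -4.76). The enolase gene ENO2 had -3.97 in S and -6.58 in U, and CDC19 had -2.17 and -5.3. In that list 3 genes, CDC19, TDH3 and ENO2 of glycolysis, were called higher in S than in U at 12 h, by 3.56, 2.84 and 3.07. Of all genes 0.126% were called in that comparison, in either direction.

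**Figure D4:**
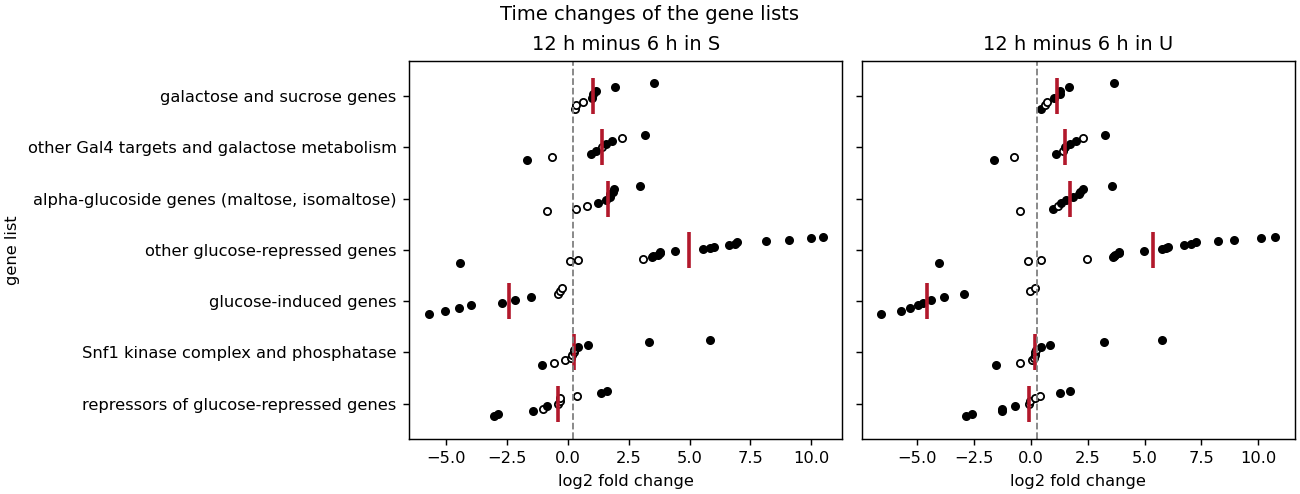
Log2 fold changes, 12 h minus 6 h, of single genes in each strain, by list; filled points passed the test, red bars are list medians and the dashed line is the median of all genes. The medians of the members, 1.03 in S and 1.14 in U, lie below those of the other glucose-repressed genes, 4.99 in S and 5.37 in U.

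The genes of the repression machinery were measured as well. MIG1 had log2 fold changes of -0.30 in S (adjusted p = 0.225) and -0.07 in U (adjusted p = 0.772). Of 11 genes of repressors and their partners 2 were called higher and 4 lower in S, and 2 higher and 5 lower in U. Of all genes 22.9% were called lower in S and 21.7% in U, and 33.2% and 33.5% higher. HXK2, the hexokinase gene tied to Mig1 repression, had -3.03 in S and -2.87 in U, STD1, a regulator gene of glucose signalling, had -2.85 and -2.60, TUP1 had -1.41 and -1.29, and RGT1, a repressor gene of hexose transporters, had 1.61 and 1.72. Of 11 genes of the Snf1 kinase and its phosphatase 4 were called higher and 1 lower in each strain. REG2, a phosphatase subunit, had 5.86 in S and 5.75 in U, SIP2, a beta subunit of the kinase, 3.33 and 3.23, and TOS3, an upstream kinase, was the gene called lower (-1.04 and -1.55). SNF1 itself had 0.25 in S (adjusted p = 0.189) and 0.18 in U (adjusted p = 0.331). Of 12 genes of Mediator and SWI/SNF 5 were called higher in each strain and none lower, with SSN2 highest at 1.12 in S and 1.09 in U. These 5 were all genes of Mediator, and no SWI/SNF gene was called. The shares called higher in the Snf1 list and in that of Mediator and SWI/SNF are near the 33.2% in S and 33.5% in U of all genes.

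Likeness of profiles was measured as the root mean square difference of log2(FPKM + 1) over the 8 libraries, after the mean of each gene was subtracted. Nearest to GAL3 were ICL2 (0.204), FOX2 (0.204) and NCA3 (0.219), and nearest to GAL4 were HEM2 (0.064), MRPL35 (0.066) and PUS5 (0.067). For GAL10 they were TOG1 (0.072), PEX29 (0.078) and GRX5 (0.083), and for GAL1 EAF6 (0.098), XPT1 (0.107) and PET130 (0.12). For GAL7 they were COX16 (0.133), YDR271C (0.135) and YLR031W (0.154), and for GAL80 ALG11 (0.05), YPS7 (0.052) and MRP13 (0.055). Among these 6 members, none had another member among its 3 nearest genes: GAL1 and GAL10, which share a promoter region, differed by 0.279, and the closest pair, GAL4 and GAL10, by 0.142.

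Genes next to the members moved in both directions. Beside the cluster of GAL7, GAL10 and GAL1, KAP104 was called lower (-0.63 in S and -0.64 in U) and FUR4 higher. Beside GAL80, SUR7 was called lower (-1.41 in S and -1.35 in U) and AIM32 higher (1.60 and 1.72). YDR010C ends 54 bases from the end of GAL3 on the other strand, and had 24.13 and 54.58 FPKM in S at 12 h, against 2.67 and 3.81 at 6 h, with log2 fold changes of 3.15 in S and 3.25 in U. Reads of GAL3 and of YDR010C cannot be told apart where their transcripts overlap if strand was not used. Beside GAL2, EMP46 was called higher (3.15 in S and 2.99 in U), and SRL2 did not pass the test (0.17 and 0.21). TRP1, on the other side of GAL3, was called higher (1.27 in S and 1.28 in U), and YPL247C, next to GAL4, did not pass the test (1.18 and 1.31). Beside SUC2, YIL163C (-0.15 in S and 0.04 in U) and SMU2 (0.43 and 0.37) did not pass the test.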

How the data were processed

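Total RNA of 8 samples was sequenced from a stranded mRNA kit over 100 cycles, per the labels' protocols. The authors deposited FPKM, 1 value per gene and library. The submitters' processing notes list TopHat2 2.1.1, Cufflinks, FastQC 0.10.1, bcl2fastq 1.8.2 and sacCer3; the settings, the annotation and any use of strand in quantification were not stated. Depth is unknown: FPKM times gene length did not fall on multiples of a common step (13.3 to 31.6% of low values lay within 0.1 of a whole number, where 20% would by chance).

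Of 7126 rows 6048 matched RefSeq (R64) by systematic ID. Limma 3.58.1 in R 4.3.3, with 4 residual and 2.33 prior degrees of freedom, was run on log2(FPKM + 1). Its code was tried on simulated data with independent noise in each library, so deviations shared by same-numbered libraries were not covered. Tables were made with Python 3.11.15 and pandas 2.3.3. The members and gene lists were chosen with earlier results of these data known. All members were named, their neighbours and the 3 nearest profiles of each called member. Up to 4 genes per list and comparison were named, called genes with the largest change first. ADH2, BAR1, CYC1, GLK1, GUT1, HXK1, HXT2, HXT7, IMA1, MAL12, MAL32, MFA1, MIG1, PGM2, SAG1, SNF1 and the levels of YDR010C were singled out after values were seen. Alternatives were another pseudocount, other filters, 2 scalings, replicate blocks, no trend, groups fitted alone, rows at 0 left out, and libraries left out.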

Additional observations from a re-analysis of the deposited data

How the results depend on the processing

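GAL3, GAL4 and GAL7 in both strains, and GAL10 in U, kept their calls at 12 h against 6 h in all 18 alternatives run for it. Over all member values, 258 of the time comparisons kept direction and call, 8 gained a call, 18 lost one and 2 reversed. Quantile normalization left 3 members called in S and reversed GAL2, to -0.32 in S and -0.05 in U. Leaving out 1 library, or both 6 h libraries of replicate 1, gave 4 to 5 called members in S and 4 to 6 in U, and 2317 to 3945 called genes in S and 2323 to 3803 in U; it is assumed there that a lone library varies like the other groups. The filter at a mean of 10 FPKM drops GAL2, so it has no value there.

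Replicate numbers are shared by all groups, but the labels tie them to nothing and each comparison has only 2 pairs. Deviations of same-numbered libraries correlated at 0.641 between S and U at 6 h and 0.375 at 12 h, and at 0.006 to 0.085 otherwise. With a replicate block GAL2 in U was called (0.61, adjusted p = 0.041), and SUC2 was not in S (0.65, adjusted p = 0.0673) or U (0.72, adjusted p = 0.0509). A block within each time was not run for time changes, because numbers nested in a time do not cross the times and give no valid error for them. The count of genes called S minus U at 12 h was 2 with the replicate block and 13 with the block within each time.

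That count was 8 in the reported fit, 0 with groups fitted alone, 2 without both 6 h libraries of replicate 1, and 1 to 15 with 1 library left out. At 6 h it was 5, 0 without rows listed at 0, and 5 to 7 with 1 library left out. For the difference of time changes it was 5, 9 with no filter, 0 without rows listed at 0, and 2 to 13 with 1 library left out. The cause was not tested.

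No member was called between strains, or in the difference of time changes, under any alternative, and 29 of these small values reversed. S minus U at 6 h reversed for GAL2 with pseudocount 0.1 (0.000203), median-of-ratios scaling (0.00251) and quantile normalization (0.01). GAL80 at 12 h reversed with the same scalings (0.03 and 0.01). With 1 library, or both 6 h libraries of replicate 1, left out, S minus U at 12 h ran from -0.24 to 0.25 for GAL1, -0.67 to 0.23 for GAL3, -0.09 to 0.07 for GAL80 and -0.36 to 0.40 for SUC2. At 6 h it ran from -0.08 to 0.07 for GAL2, -0.39 to 0.15 for GAL3, -0.13 to 0.18 for GAL4 and -0.25 to 0.43 for GAL10. The difference of time changes ran from -0.09 to 0.39 for GAL1, -0.57 to 0.33 for GAL3, -0.60 to 0.08 for GAL10 and -0.45 to 0.31 for SUC2.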
